A study of Mus musculus with 6 samples.

Results

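A set of 43 genes of basic cell functions, some of them forms known from brain or muscle, was followed through the authors' list of differentially methylated regions: 7 translation factors, 3 ribosomal proteins, 5 other common reference genes, 6 of the 14-3-3 adaptor proteins, 6 chaperones, 11 enzymes of glycolysis and 5 genes of energy supply and ion balance. The members were chosen by gene name, and every region of any cytosine context listed under one of these names was taken. This gave 31 distinct regions in 15 of the 43 genes, out of 9707 distinct regions under 4040 gene names in the whole table. The other 28 genes had no listed region.

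The data came from whole-genome bisulfite sequencing of 6 single mouse embryos of C57BL/6 background at embryonic day 4.5. As fertilised eggs all had been injected with small RNAs isolated from sperm, at 2 ng/µl, and all were grown in culture and taken about 108 h later. The 3 embryos of the normal group (replicates 1, 2 and 4) received RNA from normal mice, and the 3 of the depressed group (replicates 1, 3 and 4) received RNA from mice with stress-induced depression. They are called normal and depressed embryos below after the mice that gave the RNA, and where the levels of a region are joined by "against" the depressed group comes first. Uninjected embryos are not among the samples used here, so both groups share the injection and the culture. The comparison asks whether the methylation of the embryo's DNA differs with the source of the sperm RNA. Levels in the deposited table are the authors' group means, with 0 columns for single embryos. No level below therefore has a spread or a replicate number, the read depth behind it is unknown, and no difference could be set against the variation among embryos. The table holds no expression values, so the embryos' tissue could not be checked against marker genes.

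Cytosine methylation in mammals sits mainly on CG pairs and is largely erased in the early embryo before implantation. Methylation outside CG pairs, written CHG and CHH, where H is any base but G, is scarce in most cells and better known from neurons, oocytes and pluripotent cells. Genes used by all cells typically start in a CpG island, a stretch rich in CG pairs that is kept free of methylation. The products of the genes followed here carry out protein synthesis (elongation factors, ribosomal proteins), protein folding (heat shock proteins), docking to phosphorylated signalling proteins (14-3-3) and the breakdown of glucose.

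The sequence directly before the transcription start is shown for 3 pairs of related genes, in which the first gene carried listed regions and the second did not, because no listed region overlapped the start windows of these genes. Each run gives 150 bases up to the base before a RefSeq start (build GRCm38.p6, the assembly also called mm10), 5′ to 3′ on the gene's strand, with CG pairs in capitals.
Eef1a2 (chr2:181157016-181157165, minus strand): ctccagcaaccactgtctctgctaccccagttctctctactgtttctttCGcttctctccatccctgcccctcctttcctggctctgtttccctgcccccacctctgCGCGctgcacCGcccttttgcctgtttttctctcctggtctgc
Eef1a1 (chr9:78481725-78481874, minus strand): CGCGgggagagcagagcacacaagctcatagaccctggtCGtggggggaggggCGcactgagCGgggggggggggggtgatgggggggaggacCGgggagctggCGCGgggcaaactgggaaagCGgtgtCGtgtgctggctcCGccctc
Ldha (chr7:46845654-46845803, plus strand): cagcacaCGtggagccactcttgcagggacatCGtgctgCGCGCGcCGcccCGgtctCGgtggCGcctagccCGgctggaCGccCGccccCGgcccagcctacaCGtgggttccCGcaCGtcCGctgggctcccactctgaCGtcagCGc
Ldhb (chr6:142507958-142508107, minus strand): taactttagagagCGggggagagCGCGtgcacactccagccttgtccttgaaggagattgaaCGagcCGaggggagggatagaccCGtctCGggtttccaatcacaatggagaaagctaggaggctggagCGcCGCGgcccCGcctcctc
Ywhae (chr11:75732737-75732886, plus strand): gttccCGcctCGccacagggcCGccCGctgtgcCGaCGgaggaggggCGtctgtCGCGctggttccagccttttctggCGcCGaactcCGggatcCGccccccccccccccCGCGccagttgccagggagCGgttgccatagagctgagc
Ywhah (chr5:33018666-33018815, plus strand): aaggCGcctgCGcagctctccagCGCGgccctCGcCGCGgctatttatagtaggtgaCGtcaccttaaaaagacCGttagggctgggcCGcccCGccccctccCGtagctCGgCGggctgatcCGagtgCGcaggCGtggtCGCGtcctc

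Within these 150 bases there were 4 CG pairs at Eef1a2 and 11 at Eef1a1, 19 at Ldha and 11 at Ldhb, and 16 at Ywhae and 19 at Ywhah. For the starts shown, the gene with listed regions had more CG pairs in 1 of the 3 pairs and fewer in 2. The Ldha start shown lies 3530 bp downstream of the 5′ end of its RefSeq span, so that end is not in the window. Ldha has another RefSeq start with a window, and there the order of its pair is reversed. Its window of 300 bases held 13 CG pairs, against 30 for the Ldha start shown and 17 for Ldhb. RefSeq start windows of 300 bases (250 before and 50 after the start) were at hand for 35 of the 43 genes, 43 windows in all. The median member window held 24 CG pairs, against 7 over all 32851 RefSeq windows. That median was 25.5 in the 16 windows of members with a region and 24 in the 27 windows of members without. A GC box (GGGCGG on either strand) was found in 65.1% of the members' windows and 35.7% of all windows, CCAAT on either strand in 48.8% and 37.4%, and TATAAA in 16.3% and 13.6%. Of the 43 member windows, 0 overlapped any listed region of any gene or context. The 25 member regions whose gene has a window lay between 411 and 32323 bp from the nearest of them, with a median of 4186 bp.

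All 31 regions were lower in the depressed group, and all 31 carried an exon entry under the member's own name in the authors' annotation. Of the 43 genes, 15 had a region of any kind (34.9%), against 17.5% of 21896 protein-coding genes in RefSeq. A lower CG region was listed for 4 members (9.30%), against 2.51% of protein-coding genes. Lower CHG regions were listed for 14 members (32.6%), against 6.24%, and lower CHH regions for 11 members (25.6%), against 5.28%. For higher regions the members' count was 0 of 43 in each context, where 0.0411% of protein-coding genes had a higher CG region, 0.735% a higher CHG region and 8.85% a higher CHH region. A lower CHG or CHH region in an exon or untranslated region (UTR) was listed for 15 of the 43 members (34.9%), against 5.86% of protein-coding genes. Since the members were proposed with results of these data known, these shares describe the list and carry no test. Members with a region had a median span of 13354 bp (2043 to 32955), members without one 6939 bp (3272 to 40666), all protein-coding genes 17149 bp and those with a region 57350 bp.

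The contexts overlapped in most of the 15 genes. Eef1a2, Eef2 and Pkm (3 genes) had lower regions in all contexts, and Ywhag had CG and CHH regions. CHG and CHH regions together were listed for 7 genes, Ubb, Ywhaz, Ywhae, Hsp90ab1, Ldha, Aldoa and Ckb. For Rpl13a, Ywhab, Hsp90aa1 and Atp1b1 (4 genes) the table held a CHG region alone. A gene without a listed region is not shown to be alike in both groups, since the table gives neither its levels nor the stretches that could be compared.

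**Figure D1:**
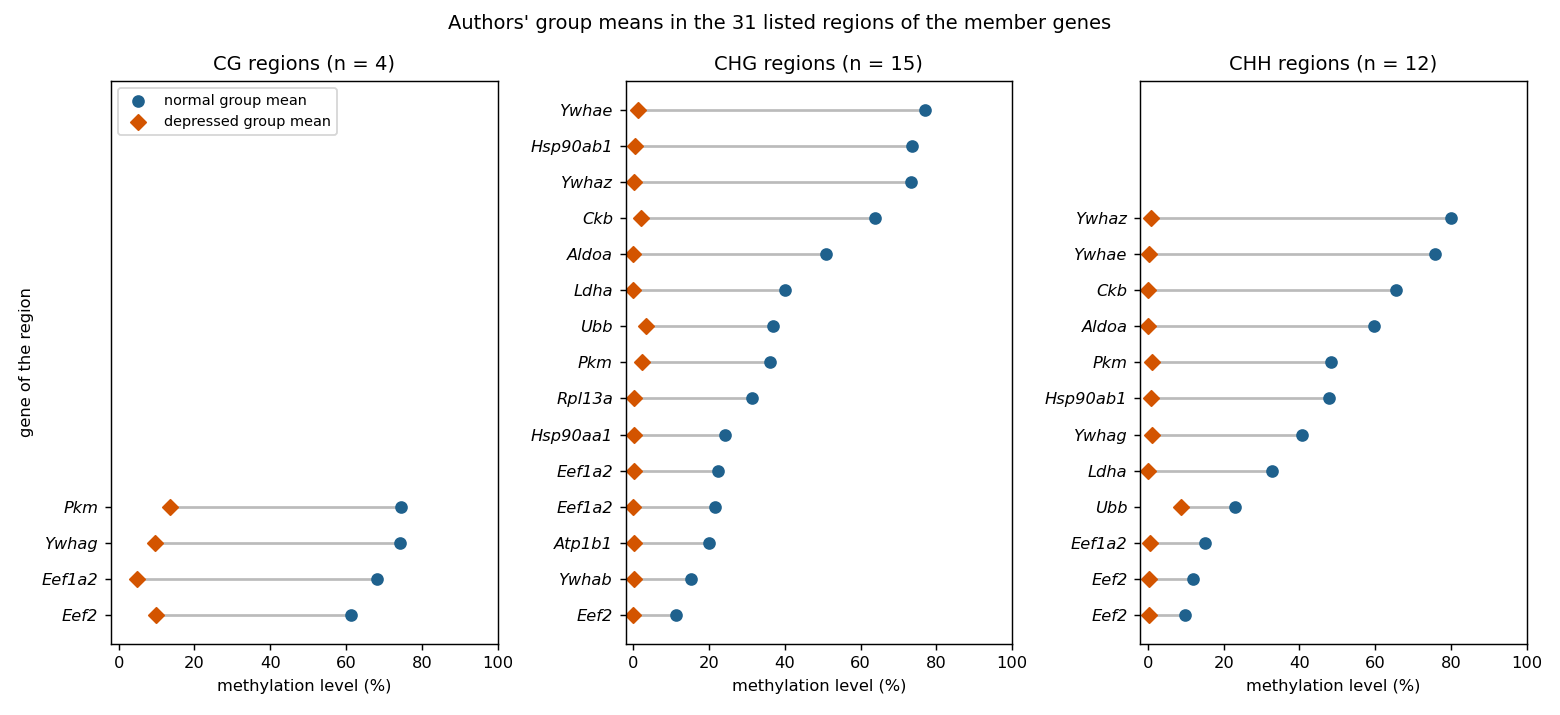
Methylation level (%, horizontal axis) of each of the 31 member regions in the authors' normal group mean (circle) and depressed group mean (diamond), with 4 CG, 15 CHG and 12 CHH regions in separate panels ordered by the normal level; a gene with several regions in a context has a row for each. The diamonds lie to the left of the circles in all 31 rows, between 4.82% and 13.7% in CG and at or below 8.71% in the other panels, while the circles of CHG and CHH run from 9.80% to 79.9%.

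The 14-3-3 proteins are dimeric adaptors that bind phosphorylated partners, and 4 of their 6 members had 7 regions. At Ywhaz, the zeta isoform, the authors' mean for CHG was 0.0759% for depressed and 73.4% for normal embryos (chr15:36772032-36772295, mm10; exon and 3′ UTR, 11 cytosines). Its CHH region (chr15:36771338-36772289, 40 cytosines) stood at 0.918% against 79.9%, the widest difference of the 31 regions at 79.0 percentage points. The region statistic there, a score the authors summed along the region, was -1311, also the largest in size among the members. Levels of this size outside CG are unusual for the DNA of early embryos. Part of the Ywhaz stretch was annotated as a long terminal repeat element of the ERV1 class as well.

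Ywhae, the epsilon isoform, had nearly the same levels in its 3′ UTR. The CHG region (chr11:75765240-75765354, 10 cytosines) was at 1.19% for depressed and 77.0% for normal embryos, and the CHH region (chr11:75765259-75765370, 18 cytosines) at 0.230% and 75.8%. At Ywhag, the gamma isoform, a CHH region in the 3′ UTR (chr5:135908831-135908994, 24 cytosines) was at 1.05% against 40.7%. A separate CG region of Ywhag (chr5:135909904-135910325; exon, intron and 3′ UTR, 12 CG pairs) was at 9.60% against 74.1%. Ywhab, the beta isoform, had 1 CHG region in an exon (chr2:164011693-164011784, 7 cytosines), at 0.0863% against 15.2%. Ywhah and Ywhaq had 0 regions, as did Sfn, the remaining gene of the family. Over the 6 regions outside CG of these genes the median normal level was 74.6%, the highest of the 7 groups of members, against 13.5% for the translation factors. Ywhaz and Ywhae each enter this median with overlapping CHG and CHH regions, while Ywhag and Ywhab, at 40.7% and 15.2%, lay well below it.

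Among the 7 translation factors only the elongation factors Eef1a2 and Eef2 had regions, with 4 each. Eef1a2 delivers aminoacyl-tRNA to the ribosome in neurons and muscle, while Eef1a1 does so in most other cells and had 0 regions. An exon of Eef1a2 held a CG region (chr2:181149781-181149898, 5 CG pairs) at 4.82% for depressed and 68.2% for normal embryos. A CHG region overlapped it (chr2:181149833-181149917, 7 cytosines) at 0.310% against 22.3%. A second stretch further upstream held a CHG region (chr2:181152733-181152930, 16 cytosines) at 0.0485% against 21.7% and a CHH region (chr2:181152716-181153111, 104 cytosines) at 0.561% against 15.2%. Normal levels outside CG thus lay between 15.2% and 22.3% in both stretches of the gene, far below the CG level at the first.

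Eef2 moves the ribosome along the messenger RNA. Its CG region (chr10:81179690-81179861; exon and intron, 8 CG pairs) was at 9.74% for depressed and 61.3% for normal embryos, and the CHH region over it (chr10:81179692-81179872, 40 cytosines) at 0.406% against 11.8%. The second stretch of Eef2 gave 0.0679% against 11.2% in CHG (chr10:81180866-81181396, 24 cytosines) and 0.256% against 9.80% in CHH (chr10:81180819-81181424, 54 cytosines). The latter is the lowest normal level of the 31 regions, and both regions were also listed at the promoter of the neighbour gene Dapk3. The helicase genes Eif4a1 and Eif4a2, the initiation factor gene Eif4g2 and Pabpc1, which binds the poly(A) tail, had 0 regions.

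Of the ribosomal proteins, Rpl13a had 1 CHG region in its 3′ UTR (chr7:45125806-45125907, 5 cytosines), at 0.0886% for depressed and 31.2% for normal embryos. Rplp0 and Rps18 had 0 regions. Among the other reference genes Ubb, which encodes a chain of ubiquitin repeats, had a CHG region (chr11:62552204-62552317, 8 cytosines) at 3.47% against 36.9% and a CHH region (chr11:62552191-62552850, 168 cytosines) at 8.71% against 23.1%. These were the highest depressed levels of the members in either context. Ubb holds repeats of its own coding sequence, and how reads were placed among them was not analysed here. Ppia, Hprt, B2m and Tbp had 0 regions.

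Of the 6 chaperones, both cytosolic Hsp90 genes had regions. Hsp90ab1, the constitutive form, was at 0.487% for depressed and 73.7% for normal embryos in CHG (chr17:45568958-45569048; exon, 8 cytosines). The CHH region over it, which is longer (chr17:45568959-45569758; exon, intron and promoter, 45 cytosines) stood at 0.835% against 47.9%. Hsp90aa1, the inducible form, had 1 CHG region (chr12:110695300-110695380; exon and promoter, 8 cytosines) at 0.242% against 24.2%. The Hsp70 family genes Hspa8, Hspa5 and Hspa4 and the co-chaperone gene Dnajb1 had 0 regions.

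Glycolysis had regions in 3 of 11 genes. Aldoa, the aldolase that splits fructose bisphosphate, was at 0.0462% for depressed and 50.8% for normal embryos in CHG (chr7:126795735-126795815; exon and intron, 6 cytosines). Its CHH region (chr7:126795716-126796631) stood at 0.148% against 59.7%, with 25 cytosines in 916 bp, or 2.73 per 100 bp, the lowest density of the 12 CHH regions. Both Aldoa regions were listed at the promoter of Fam57b as well.

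Ldha, which turns pyruvate into lactate, had its regions at the end of the 3′ UTR, at 0.0624% against 40.1% in CHG (chr7:46855386-46855528, 10 cytosines) and 0.144% against 32.7% in CHH (chr7:46855400-46855616, 33 cytosines). Pkm, the pyruvate kinase of the last step, had a CHG region (chr9:59679270-59679363, 11 cytosines) at 2.41% against 36.1% and a CHH region (chr9:59679260-59679350, 25 cytosines) at 1.18% against 48.2%, both in the 3′ UTR and also listed at the promoter of Gramd2. A CG region of Pkm lay far from these, over an exon and intron (chr9:59665926-59666051, 7 CG pairs), at 13.7% against 74.6%. Gapdh, Pgk1, Ldhb, Eno1, Eno2, Gpi1, Tpi1 and Pgam1 had 0 regions, Eno2 being the enolase of neurons and Ldhb the subunit common in heart and brain.

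In the group of energy supply and ion balance, Ckb, the creatine kinase of brain, had both regions at the end of the gene. They were at 2.04% for depressed and 63.7% for normal embryos in CHG (chr12:111669357-111669693; exon and 3′ UTR, 23 cytosines) and at 0.124% against 65.6% in CHH (chr12:111669341-111669701, 46 cytosines). Atp1b1, the beta subunit of the sodium pump, had 1 CHG region (chr1:164443666-164443895; exon, intron and promoter, 11 cytosines) at 0.189% against 20.1%. Atp5b (ATP synthase), Sdha (succinate dehydrogenase) and Cox4i1 (cytochrome oxidase) had 0 regions.

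Set beside all listed lower regions of the same context, the members had a higher median depressed level in CG and a higher median normal level in CHH. In CG the medians were 9.67% for depressed and 71.2% for normal embryos for the 4 member regions and 4.92% and 70.2% for all 867. For CHG they were 0.189% and 36.1% in 15 member regions, against 0.174% and 30.9% in all 1715. The 12 CHH regions of the members had medians of 0.484% and 44.3%, against 0.637% and 24.9% in all 1415. These are differences between medians of the list, and no test of them was made.

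An exon or UTR entry was present for 15 of 15 CHG regions, 12 of 12 CHH regions and 4 of 4 CG regions of the members. Over all lower regions it was present for 83.1% of CHG, 65.9% of CHH and 31.4% of CG regions. A 3′ UTR entry stood beside 6 of 15 CHG regions (40.0%, against 47.7% of all) and 6 of 12 CHH regions (50.0%, against 43.0% of all). The 5′ UTR was listed for 0 of the 31 regions, against 6.01% of all CHG, 4.81% of all CHH and 26 of all 867 CG regions. A CpG island entry was likewise present for 0 of 31, against 11.1% of CHG, 7.56% of CHH and 26 of 867 CG regions. A CpG island shore, the flank of an island, was listed for 46.7% of the members' CHG, 33.3% of their CHH and 50.0% of their CG regions, against 12.3%, 13.5% and 6.34% of all. A promoter entry, under any gene name or none, stood beside 7 of 15 CHG regions (46.7%, against 16.2% of all) and 5 of 12 CHH regions (41.7%, against 15.1%). For the CHG and CHH regions of Ubb this entry had no gene name. A promoter entry was under the member's own name for 3 genes, Hsp90ab1, Hsp90aa1 and Atp1b1, of which the first and second have no start window here. A repeat was listed for 2 of 15 CHG regions (13.3%) and 1 of 12 CHH regions (8.33%), against 11.2% and 27.5% of all. Member CHH regions held a median of 14.9 cytosines per 100 bp, against 21.2 in all lower CHH regions, and CHG regions 7.41 against 8.33. In CHH the members' share of repeats and their median cytosine density were thus below those of the whole list.

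Positions along the gene could be given for the 11 genes with a strand in the RefSeq start table, leaving out Ywhaz, Ywhab, Hsp90ab1 and Hsp90aa1. Most CHG and CHH regions lay near the 3′ end in bp, while their place relative to the gene's length was close to that of all regions. The median midpoint was at 90.6% of the span in CHG and 89.1% in CHH, against 88.8% and 87.0% over all pairs. Within 1000 bp of the 3′ end of the RefSeq span were 7 of 11 CHG regions (63.6%, against 25.3% of 1196 pairs of a gene and a lower CHG region) and 7 of 10 CHH regions (70.0%, against 29.5% of 928 pairs). At Ckb the CHH region reached the gene's end and the CHG region lay 2 bp from it. The CHG region of Pkm lay 9 bp from the 3′ end and the CHH region 22 bp, and at Ldha the distances were 99 bp and 11 bp. Ywhae (487 and 471 bp), Aldoa (501 and 482 bp), Ywhag (452 bp in CHH), Rpl13a (243 bp) and Ubb (896 and 363 bp) followed. The regions of Eef1a2 (8075 and 10975 bp in CHG), Eef2 (1113 bp in CHG) and Atp1b1 (6567 bp) lay further in. Of the 4 CG regions, 0 lay within 1000 bp of either end, and of the members' CHG and CHH regions 0 lay within 1000 bp of the 5′ end, against 7.19% and 5.60% of all such pairs. Short genes bring every region near an end, and the members with a region have a shorter median span than the protein-coding genes listed, so these distances are a description.

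**Figure D2:**
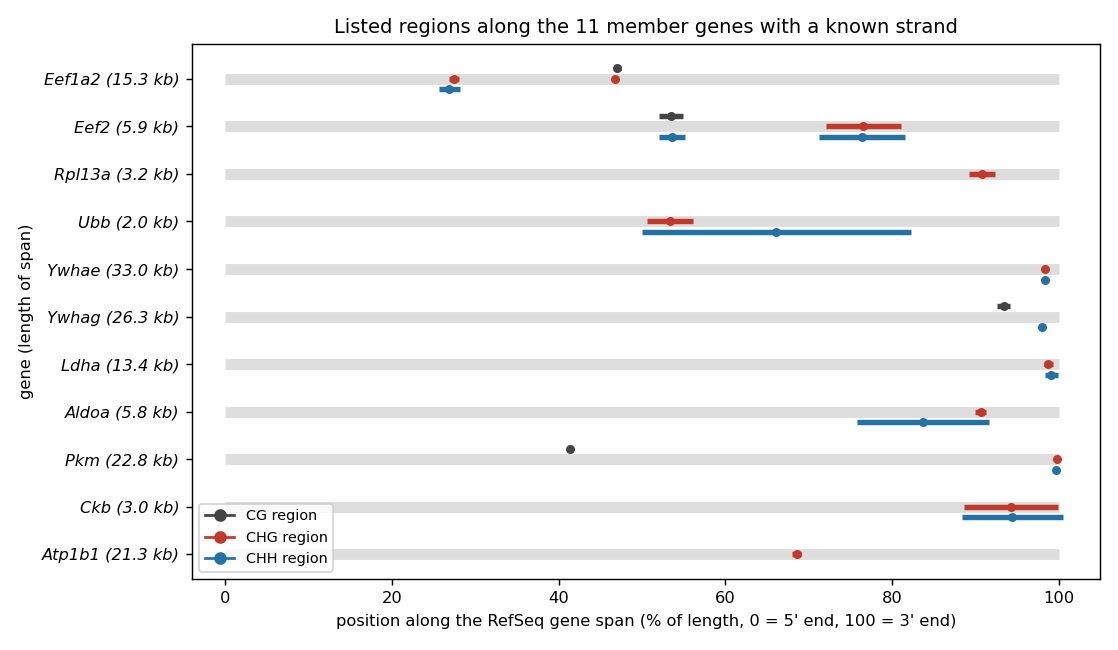
Position of the listed regions along the 11 member genes whose strand is known, as a percentage of the RefSeq gene span (horizontal axis, 0 at the 5′ end, 100 at the 3′ end), with 1 grey bar per gene and its length in kb at the left. Points mark region midpoints and coloured bars their extent for CG (dark grey), CHG (red) and CHH (blue); the regions of Ywhae, Ldha, Pkm and Ckb in CHG and CHH sit at the right edge, from 94.3% on, while the stretches of Eef1a2 have their midpoints between 26.9% and 47.0%.

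CHG and CHH regions overlapped at most places. Of the 15 member CHG regions, 10 overlapped a lower CHH region of the same gene (66.7%), and 10 of the 12 member CHH regions overlapped a CHG region, against 48.9% of all lower CHG and 54.3% of all lower CHH regions. In these 10 pairs the 2 normal levels differed by a median of 6.96 percentage points, against 4.08 over all 840 pairs of the table, and 7 of the 10 were within 10 points. The closest were Ywhae (77.0% in CHG and 75.8% in CHH), Eef2 (11.2% and 9.80%) and Ckb (63.7% and 65.6%). Hsp90ab1 differed most, with 73.7% in CHG and 47.9% in the much longer CHH region. Across the 10 pairs Pearson's r of the normal levels was 0.89 and Spearman's rho 0.79, and across all 840 pairs they were 0.87 and 0.87. These are descriptions over places in the same libraries, and have no p-value.

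CG levels were higher than those of the other contexts where they overlapped. At Eef1a2 the normal CG level was 68.2% where CHG stood at 22.3%, and at Eef2 it was 61.3% where CHH stood at 11.8%, gaps of 45.9 and 49.5 percentage points. Of all 867 lower CG regions 3.46% overlapped a lower CHG region and 3.46% a lower CHH region, so these 2 of the 4 member CG regions belong to a small class in the table. The CG regions of Pkm and Ywhag stood apart from the other regions of their genes. Eef2 and Pkm lie on chromosomes 10 and 9. With regions on these chromosomes left out, 2 of 43 members had a lower CG region, against 1.18% of protein-coding genes. The genes of these chromosomes were kept in both totals, so neither share is a rate for the other chromosomes. Protein-coding genes with a lower CG region numbered 550 with all chromosomes and 258 with these regions left out.

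**Figure D3:**
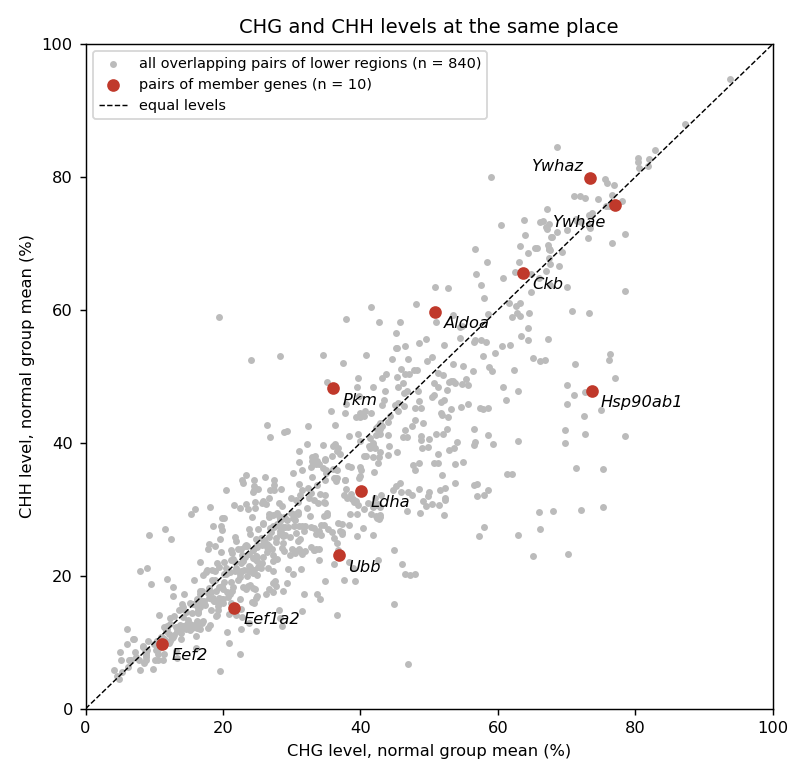
Authors' normal group mean in CHG (horizontal axis, %) against that in CHH (vertical axis, %) where a lower CHG and a lower CHH region overlap, for all 840 such pairs (grey) and the 10 pairs of member genes (red, named); the dashed line marks equal levels. The pairs of Ywhae, Ckb and Eef2 lie at the line, and Hsp90ab1 lies well below it.

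Other genes of the same pathways, from lists fixed by name, gave a mixed picture. Of 44 further initiation and elongation factor genes, 10 had a lower CHG region (22.7%, against 6.24% of protein-coding genes) and 7 a lower CHH region (15.9%, against 5.28%), while 1 had a higher CHG and 3 a higher CHH region. The strongest lower ones by the statistic were Eif5a (CHH, 0.395% for depressed and 49.0% for normal embryos, 3′ UTR), which helps stalled ribosomes along, and Eif4g3 (CHH, 0.923% against 30.6%, exon), a scaffold of the cap-binding complex. Both also had a higher CHH region, at 8.94% against 1.49% for Eif5a and 26.3% against 10.5% for Eif4g3. Of 51 further chaperone genes, 5 had a lower CHG region (9.80%) and 5 a lower CHH region (9.80%), not far from the background, with 0 higher. These included the auxilin gene Dnajc6 (CHH, 0.567% against 50.9%), which uncoats synaptic vesicles, and the Hsp110-type gene Hspa4l (CHH, 38.6% in the normal group; CHG, 0.921% against 42.9%), both in the 3′ UTR.

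Further genes of glycolysis and glucose transport numbered 27, with 3 in lower CHG (11.1%) and 2 in lower CHH (7.41%). Lower CG regions were listed for 2 (7.41%, against 2.51% of protein-coding genes) and a higher CHH region for 1 (3.70%, against 8.85%). Both genes with a lower CG region, Pfkl among them, lie on chromosome 10, as does Eef2. At the hexokinase gene Hk2 the CHG level was 0.0578% for depressed and 67.6% for normal embryos in its 3′ UTR. Pfkl, a phosphofructokinase gene, had a CG region at 16.1% against 70.4% with a CHH region over it at 0.404% against 8.24%, so CG stood above CHH there as at Eef2. Pfkm, the muscle form, was at 1.06% against 13.0% in CHH, and the higher CHH region belonged to Pfkfb2, at 5.01% against 0.519%. Of 50 further energy genes, 4 had a lower CHG (8.00%) and 4 a lower CHH region (8.00%), again not far from the background. Cox8a, a cytochrome oxidase subunit gene, stood at 1.43% against 51.5% in CHH in its 3′ UTR, and Atp1b2, another sodium pump beta subunit gene, at 0.579% against 34.5% at its transcription start. Of 76 further ribosomal protein genes 3 had a lower CHG region (3.95%) and 3 a lower CHH region (3.95%) beside the background of 6.24% and 5.28%. A higher CHG region was listed for 1 of the 76 (1.32%, against 0.735% of protein-coding genes). Rps9 had the strongest of the lower regions (CHH, 0.368% against 22.8%, promoter).

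Marker genes of several cell types, those of the blastocyst included, were listed for lower regions outside CG to different degrees. Of 30 neuronal markers 17 had a lower CHG region (56.7%, against 6.24% of protein-coding genes) and 15 a lower CHH region (50.0%, against 5.28%). Among them were Map1a, Vgf, Hpcal4 and Nefl. Of the 57 lower regions outside CG of neuronal markers, 51 had an exon or UTR entry. Over all lower regions such an entry was present for 83.1% in CHG and 65.9% in CHH. Of 12 oligodendrocyte markers 4 had a lower CHG (33.3%) and 3 a lower CHH region (25.0%), and of 12 astrocyte markers 3 and 3 (25.0% in both). Of 20 blastocyst markers 2 had a lower CHG region (Sox2 and Krt8) and 3 a lower CHH region (Sox2, Krt8 and Krt18). Krt8 was named after its values were seen. Other blastocyst markers had higher regions, Cdx2 in CHG and Elf5 and Pdgfra in CHH. The statistic was largest in size for Pdgfra (844), followed by Krt18 (-765), Elf5 (685) and Sox2 (-516), all in CHH. Sperm and testis markers had 1 of 16 in CHG (6.25%) and 0 in CHH, and liver (14 genes), skeletal muscle (14) and blood (12) had 0 in both. In lists this short, counts of 0 or 1 cannot be told from the background of 6.24% and 5.28%. Higher CHG regions were listed for 2 liver markers (14.3%, against 0.735% of protein-coding genes) and for 1 each of the neuronal, oligodendrocyte and blastocyst markers. Higher CHH regions were listed for 3 of 30 neuronal markers, 2 each of the astrocyte, oligodendrocyte and blood markers (16.7%), 2 of 20 blastocyst markers and 1 sperm and testis marker (6.25%), against 8.85% of protein-coding genes. Median normal levels over the lower regions outside CG were 31.5% for the neuronal markers and 42.0% for the astrocyte markers. The part that any other source of DNA or RNA has in the members' values was not tested.

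**Figure D4:**
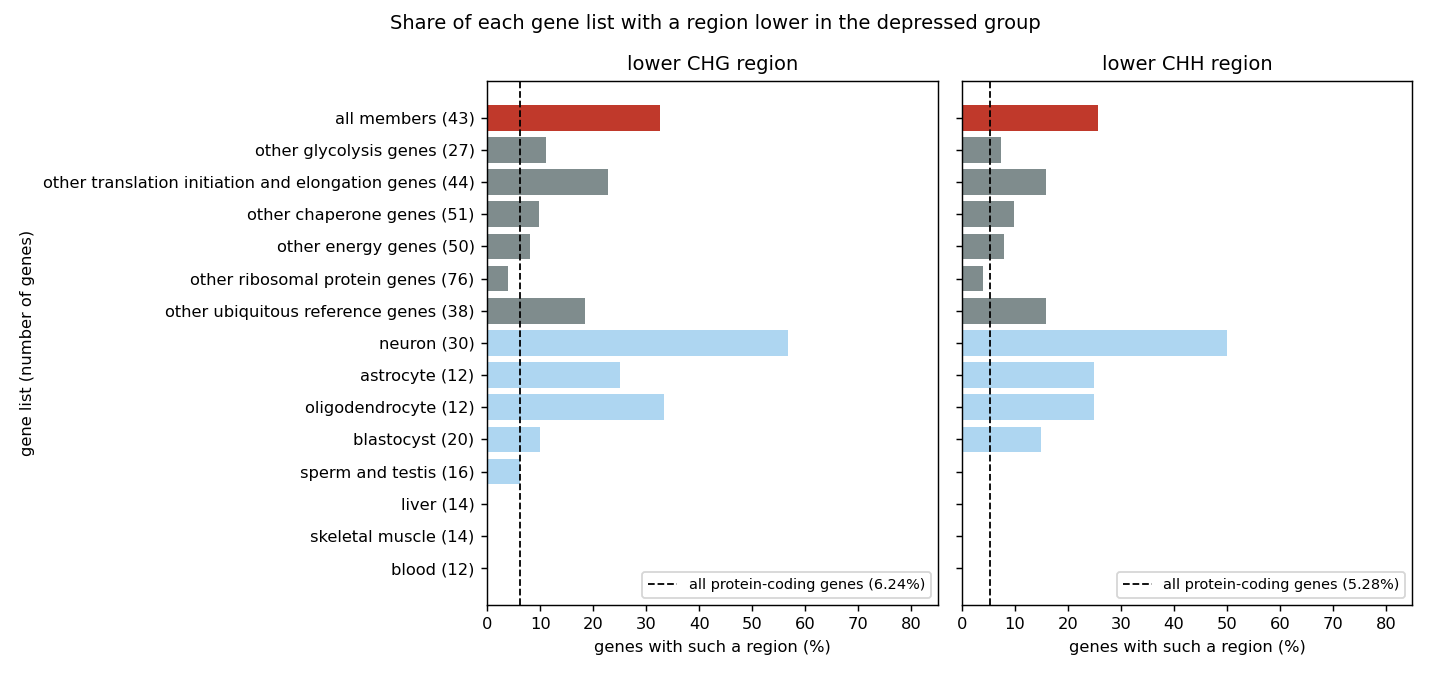
Percentage of the genes of each list (horizontal axis) with a region lower in the depressed group, for CHG (left) and CHH (right), with the 43 members in red, further genes of the same pathways in grey and cell type markers in light blue, and the number of genes in brackets. The dashed line gives the share of all protein-coding genes, 6.24% and 5.28%; the members stand at 32.6% and 25.6%, the neuronal markers at 56.7% and 50.0%, and the ribosomal protein genes at 3.95% in both.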

How the data were processed

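Bisulfite libraries of 6 single embryos were trimmed with Trim Galore 0.3.3 and processed with Bismark and SAMtools on mm10, per the submitters' processing notes. For the program that called the regions, its thresholds and its coverage limit: not given in the sources used here. Per the file headers, the deposited table gives each region's position, length, number of cytosines, context, a region statistic (a score by the authors) and annotation entries. Methylation is a group mean deposited as a fraction, shown here in percent, with no value of a single embryo.

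The 18732 entries were collapsed to 9707 regions by position and context. All 9707 differences equalled depressed minus normal within 1e-06 percentage points. A gene counts as called where the table lists a region under its name, whatever the distance. Background shares are over 21896 protein-coding RefSeq symbols (GRCm38.p6), of which 3837 are among the 4040 names in the table. All 43 members matched a symbol. Strands and start windows came from the RefSeq promoter table. The members and all gene lists were chosen with earlier results of these data known. The naming rule took every member with a region, its strongest region in full, and up to 4 genes of each other list by the size of the statistic; the members' remaining regions are given too, and a few other genes are not reported here. No test between embryos could be made, and none is made over genes or regions. The counting code was checked on a small made-up table. Python 3.11.15, pandas 2.3.3 and scipy 1.17.1 were used. Alternatives covered distance to the gene, difference size, cytosine number, statistic, shared regions, synonyms and the background.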

Additional observations from a re-analysis of the deposited data

How the results depend on the processing

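Over 21 results and 84 alternative values, 72 stayed close to the value reported: counts within a factor of 1.5, and shares and medians within a 95% binomial interval over regions or genes. The number of members with any region, the 0 members with a higher CHG or CHH region and the exon or UTR shares did not move beyond this in any alternative run. The number of members with any region came to the edge of it, at 10 in place of 15 with the statistic at or above the context's median. No background share was computed for that count. Apart from the synonym search and the exon entry under the member's own name, these alternatives only took regions away. Taking regions away cannot change a count of 0 or a share of 100%, so these runs do not test them. All 31 regions overlapped the span of their gene, so the distance limits removed none. Other counts fell with stricter limits, as fewer regions pass them. With at least 10 cytosines, 8 of 43 members had a lower CHG region (background 3.65%) and 1 a lower CG region (0.365%). With the statistic at or above the context's median, 8 had a lower CHG region (3.49%) and 5 a lower CHH region (2.54%). With regions on chromosomes 9 and 10 left out but their genes kept in the totals, 2 had a lower CG region (1.18%). Weighted by cytosines, the depressed CHH level was 2.73% in place of the median of 0.484%, where Ubb, at 8.71%, holds 168 cytosines. Over all 49993 RefSeq symbols, noncoding ones included, the background was 1.10% for lower CG, 0.0180% for higher CG, 2.75% for lower CHG, 0.326% for higher CHG, 2.34% for lower CHH and 3.92% for higher CHH. No paired analysis was possible because the table holds group means and no values of single embryos; for the same reason no embryo could be left out in turn. The read depth behind the levels is unknown.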

Other observations

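Of 38 other widely used reference genes, not among the 43, 9 had a listed region (23.7%, against 17.5% of protein-coding genes). A lower CHG region was listed for 7 (18.4%, against 6.24%) and a lower CHH region for 6 (15.8%, against 5.28%), and 1 (Ppp2ca, at 3.28% for depressed and 0.229% for normal embryos, intron, named after its values were seen) had a higher CHH region. Cfl1, which encodes the actin-severing cofilin, was at 0.312% against 88.0% in CHH in its 3′ UTR. Actb and Tubb5, of the actin and tubulin cytoskeleton, stood at 2.64% against 47.3% and 2.31% against 67.2% in CHH. Over the 15 lower regions outside CG of these genes the median normal level was 50.7%, and all 15 had an exon or UTR entry.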
